A study of Mus musculus with 21 samples.

Results

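Foxd3 and 8 other transcription factors of the formative or primed state were followed through RNA polymerase I inhibition in mouse embryonic stem cells. The 9 genes were Foxd3, Otx2, Pou3f1, Sox3, Sox4, Sox11, Lef1, Tcf7l1 and Etv1, which make up 9 of the 20900 gene symbols in the deposited table. They were chosen by symbol: Foxd3 was selected on its large fall against untreated cells in earlier results of these data, and the others on their known role, with their levels in all groups in view. All 9 were among the 14666 genes tested, so none was lost to the filter on low values. The cells were E14, an embryonic stem cell line of the 129 strain grown with serum and leukaemia inhibitory factor (LIF) and without feeder cells named in the labels. The medium was changed for medium with an inhibitor of RNA polymerase I, either BMH-21 or CX-5461, each at 1 µM. Poly(A) RNA was sequenced from untreated cells at 0 h and at 2, 4 and 8 h under either compound. The design held 7 groups of 3 libraries, 21 in all, with the 0 h libraries as the control of both inhibitors. No untreated group at 2, 4 or 8 h was part of the comparison, so time after the medium change and inhibitor cannot be told apart. All libraries came from 1 cell line, and nothing in the labels says that replicates were separate cultures. The p-values measure only the spread between these libraries, which may be technical.

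Embryonic stem cells in LIF sit close to the naive state of the early epiblast. On leaving it they pass through a formative state, in which naive factors are switched off and a second set of transcription factors is used, before they respond to lineage signals. Foxd3, a forkhead factor, is required in the epiblast and acts at enhancers during this exit. Otx2, a homeobox factor, acts with Pou5f1 on enhancers that open in the formative state, and Pou3f1 is a POU factor of the same state. Sox3 is a relative of Sox2, Sox4 and Sox11 belong to the SoxC subfamily, and Lef1 and Tcf7l1 are HMG-box partners of beta-catenin in WNT signalling. In embryonic stem cells Tcf7l1 acts mainly as a repressor of pluripotency genes. Etv1 is an ETS factor of the same subfamily as Etv4 and Etv5, genes that respond to FGF and ERK signalling.

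The genes lie on 7 chromosomes, and GENCODE M21 on GRCm38 places them as follows, in the build the submitters' processing notes name as mm10. Foxd3 is at chr4:99656299-99658622 on the plus strand and Pou3f1 at chr4:124656807-124660655 on the plus strand. Otx2 is at chr14:48657677-48673819 on the minus strand, and Sox3 at chrX:60891366-60893430 on the minus strand. Sox4 is at chr13:28948919-28953713 and Sox11 at chr12:27334264-27342574, both on the minus strand. Lef1 is at chr3:131110471-131224356 on the plus strand, Tcf7l1 at chr6:72626378-72789254 on the minus strand, and Etv1 at chr12:38779380-38870484 on the plus strand. The rule did not use gene structure. Foxd3, Pou3f1, Sox3, Sox4 and Sox11 have 1 exon in the annotation, so 5 of the 9 are single-exon genes, against 431 of 14119 tested genes matched by 1 GENCODE gene (3.05%). Foxd3 overlaps the microRNA gene Gm23366 on its own strand. Otx2, Pou3f1, Sox4, Lef1 and Tcf7l1 each overlap an annotated transcript on the other strand, and whether the authors' counting used strand is not given in the sources used here. Of those transcripts, the table lists Otx2os1, with 1 to 26 reads in any library beside 655 to 3556 of Otx2, and Gm15401, with 98 to 206 reads beside 2466 to 8375 of Tcf7l1.

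RefSeq promoter entries on GRCm38.p6, each of 300 bases around a transcript start in RefSeq, were found for 7 of the 9 genes. Pou3f1 and Sox3 are the genes without an entry. Starts in RefSeq need not be those of GENCODE: the Sox11 entry lies wholly upstream of the GENCODE gene and most of the Tcf7l1 entry lies within it. The 3 entries below, the only ones of their genes, belong to a gene with its lowest level at 4 h of BMH-21 (Foxd3), a gene with its lowest levels at 4 h of CX-5461 and 8 h of BMH-21 (Sox11) and a gene with its lowest level at 8 h of BMH-21 (Tcf7l1). Capitals mark matches, on either strand, to GGGCGG (the GC box), to CCAAT (the CCAAT box), to TATAAA (the TATA box) and to CACGTG (an E-box).
Foxd3: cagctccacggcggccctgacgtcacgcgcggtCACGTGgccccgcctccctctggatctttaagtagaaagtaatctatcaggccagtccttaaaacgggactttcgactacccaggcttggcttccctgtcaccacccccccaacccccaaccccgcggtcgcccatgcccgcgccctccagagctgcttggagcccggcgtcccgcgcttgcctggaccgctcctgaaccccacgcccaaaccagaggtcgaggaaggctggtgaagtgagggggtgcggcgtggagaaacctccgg
Sox11: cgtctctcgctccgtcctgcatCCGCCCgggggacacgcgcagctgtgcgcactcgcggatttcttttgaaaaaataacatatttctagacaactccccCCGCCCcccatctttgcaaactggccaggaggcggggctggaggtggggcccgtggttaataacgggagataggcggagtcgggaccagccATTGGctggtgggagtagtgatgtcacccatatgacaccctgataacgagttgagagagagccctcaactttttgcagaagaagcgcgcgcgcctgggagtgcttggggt
Tcf7l1: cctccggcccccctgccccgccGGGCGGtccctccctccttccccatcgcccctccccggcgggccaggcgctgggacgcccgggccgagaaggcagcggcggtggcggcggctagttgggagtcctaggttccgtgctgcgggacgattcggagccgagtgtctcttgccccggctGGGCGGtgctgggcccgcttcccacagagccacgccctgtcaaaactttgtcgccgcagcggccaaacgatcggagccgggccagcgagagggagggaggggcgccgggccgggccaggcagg
The Foxd3 entry lies at chr4:99656049-99656348 on the plus strand, the Sox11 entry at chr12:27342669-27342968 and the Tcf7l1 entry at chr6:72788996-72789295, both on the minus strand. The Foxd3 promoter held 25 CpG dinucleotides and 1 E-box, the Sox11 promoter 21 CpG, 2 GC boxes and 1 CCAAT match, and the Tcf7l1 promoter 34 CpG and 2 GC boxes. The median over 32851 promoter entries of the same length was 7 CpG, with an interquartile range of 3 to 20. All 3 printed promoters lay above that range. Sox4, which also had a single entry, held 12 CpG, within the range. The entries of Otx2, Etv1 and Lef1 held from 3 (Etv1) to 21 (Lef1). GGGCGG was present in 35.7% of those entries, CCAAT in 37.4%, TATAAA in 13.6% and CACGTG in 7.15%. A match describes the letters in this window only.

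In untreated cells the 9 genes covered a wide range of expression. Values are the deposited log2 expression, in which 1 unit is a 2-fold step, and levels between genes are compared per kilobase of annotated exon. On that per-kilobase log2 scale the order was Tcf7l1 (5.23), Foxd3 (4.90), Otx2 (4.08), Pou3f1 (3.11), Sox4 (2.77), Sox3 (1.65), Sox11 (1.50), Lef1 (1.16) and Etv1 (0.63). Sox3 and Sox11 overlapped between libraries, and every other neighbouring pair in that order was apart. After 4 h of BMH-21 Foxd3 stood sixth in the same order, at 0.18, below Sox4, Pou3f1, Otx2 and Sox3. Its values there overlapped those of Sox3.

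Depth was similar across libraries, from 46604397 to 62812641 reads over the genes of the table, and every member had at least 108 reads in every library. Each library carries a deposited scaling factor, from 0.832 to 1.375, which differs from median-ratio factors of the same genes (0.941 to 1.107). With these factors the median of all tested genes, relative to untreated cells, shifted by -0.07, -0.21 and -0.40 log2 units at 2, 4 and 8 h of BMH-21. With CX-5461 the shifts were -0.18, -0.28 and 0.11. Values are therefore also given centred, with each library set to its median gene, at points where this changes a direction or a call. CPM below are reads scaled to the library total and its deposited scaling factor, so marker sums move with those factors. The 8 embryonic stem cell markers were all expressed, and their summed level was 5598 to 6310 CPM in untreated cells. It was 2886 to 3360 at 4 h and 2303 to 2607 at 8 h of BMH-21, and 3005 to 3604 at 4 h and 4820 to 5231 at 8 h of CX-5461. Markers of other cells had lower sums than these. For 6 fibroblast markers the summed level was 30.4 to 34.8 CPM in untreated cells, and 43.4 to 53.3 at 4 h and 38.6 to 46.4 at 8 h of BMH-21. It was 42.8 to 44.1 at 8 h of CX-5461, with Lum at 3 reads or fewer and 3 of the 6 below the filter. For 6 mesoderm markers it was 10.3 to 12.1 in untreated cells and 14.5 to 16.9 at 8 h of CX-5461. For 6 trophoblast markers it was 97.4 to 108 in untreated cells. It was 64.9 to 80.6 at 4 h and 129 to 153 at 8 h of BMH-21, and 60.8 to 72.6 and 149 to 169 at those times of CX-5461. For 6 primitive endoderm markers it was 9.12 to 11.2 in untreated cells and 12.4 to 12.8 at 8 h of CX-5461. For 6 neural progenitor markers it was 217 to 240 in untreated cells. It was 245 to 273 at 2 h and 107 to 122 at 8 h of BMH-21, and 230 to 274 and 271 to 284 at those times of CX-5461. Their part in the results was not tested. The second 8 h BMH-21 library stood apart from the other two of its group, where the chi-square of read counts over its degrees of freedom was 26.0 and 24.6 against them and 4.93 between them, and it had the largest scaling factor (1.375). In bulk RNA, fewer cells of a type and less RNA per cell cannot be told apart.

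Foxd3 had the lowest value of all tested genes relative to control at 4 h of BMH-21, and comparisons with control were used to select it. Its log2 level was 6.11, 6.12 and 6.12 in the 3 untreated libraries. With BMH-21 it was 4.25, 4.32 and 4.42 at 2 h, 1.57, 1.24 and 1.39 at 4 h, and 2.33, 1.67 and 1.98 at 8 h. The untreated libraries were nearly identical, and no treated library reached them. Read counts were 3171 to 3296 in untreated cells and 135 to 144 at 4 h of BMH-21. With CX-5461 the log2 level was 4.51, 4.35 and 4.30 at 2 h, 3.93, 4.30 and 3.83 at 4 h, and 5.71, 5.35 and 5.53 at 8 h. The 2 h and 4 h CX-5461 libraries overlapped the 2 h BMH-21 libraries, and the 8 h CX-5461 libraries lay between those and the untreated ones. Relative to control Foxd3 was 3.45-fold lower at 2 h, 26.3-fold at 4 h and 17.4-fold at 8 h of BMH-21, log2 differences of -1.79, -4.72 and -4.12 (SE 0.12, n = 3 a group). With CX-5461 it was 3.3-fold, 4.29-fold and 1.50-fold lower, log2 differences of -1.73, -2.10 and -0.59 with the same SE. Foxd3 was thus at 3.80% of the control level at 4 h of BMH-21 and at 66.6% at 8 h of CX-5461.

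Otx2 followed the same order of groups as Foxd3 at the bottom and top, over a smaller range. Its log2 level was 6.25, 6.18 and 6.05 in untreated cells, then 5.04, 5.30 and 5.16 at 2 h, 3.80, 3.66 and 3.58 at 4 h, and 4.50, 4.15 and 4.25 at 8 h of BMH-21. Under CX-5461 the level was 4.99, 4.79 and 4.81 at 2 h, 4.73, 5.17 and 4.71 at 4 h, and 6.03, 5.85 and 5.98 at 8 h. The lowest libraries were again those of BMH-21 at 4 h, and no treated library overlapped the untreated ones. Otx2 differed from control by -1.0, -2.48 and -1.86 in the BMH-21 series, and by -1.30, -1.29 and -0.21 in that of CX-5461 (SE 0.11). Centred, the 8 h CX-5461 difference of Otx2 was -0.42 and was called, which it was not on the deposited scale. Over the 7 centred group means, Otx2 and Foxd3 had a Pearson r of 0.97, a description of points that share the control libraries.

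Pou3f1 parted from Foxd3 and Otx2 after 2 h. Its log2 level was 5.17, 4.97 and 5.03 in untreated cells, 4.06, 4.20 and 4.32 at 2 h, 4.05, 3.80 and 4.00 at 4 h, and 3.34, 3.21 and 3.39 at 8 h of BMH-21. The lowest BMH-21 libraries were those of 8 h, not 4 h. In the CX-5461 libraries it was 4.48, 4.21 and 4.28 at 2 h, 4.82, 5.04 and 4.67 at 4 h, and 5.64, 5.28 and 5.62 at 8 h. The 4 h CX-5461 libraries overlapped the untreated ones, and all 3 libraries of 8 h lay above them. Differences from control were -0.86, -1.10 and -1.74 in the BMH-21 series, and -0.73, -0.21 and 0.46 in that of CX-5461 (SE 0.12). Centred on the median gene, the 8 h CX-5461 difference was 0.24.

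Sox3, the Sox2 relative, was the least abundant member in reads, with 267 to 325 in untreated cells. Its log2 level was 2.80, 2.81 and 2.50 there, 2.32, 2.59 and 2.33 at 2 h, 1.91, 1.38 and 1.43 at 4 h, and 1.57, 1.24 and 1.68 at 8 h of BMH-21. With CX-5461 it was 2.62, 2.16 and 2.22 at 2 h, 1.07, 1.21 and 1.20 at 4 h, and 2.48, 2.37 and 2.31 at 8 h. The 2 h libraries of both inhibitors overlapped the untreated ones, and the lowest libraries were those of CX-5461 at 4 h. Differences from control were -0.29, -1.13 and -1.20 in the BMH-21 series, and -0.37, -1.54 and -0.31 in that of CX-5461 (SE 0.15). Centred, the 8 h CX-5461 difference of Sox3 was -0.53 and was called, which it was not on the deposited scale.

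The SoxC genes Sox4 and Sox11 took different courses. Sox11 had a log2 level of 4.50, 4.64 and 4.53 in untreated cells, 3.77, 4.05 and 3.97 at 2 h, 2.76, 2.82 and 2.75 at 4 h, and 2.61, 2.12 and 2.51 at 8 h of BMH-21. After CX-5461 it reached 3.90, 3.62 and 3.57 at 2 h, 2.33, 2.78 and 2.38 at 4 h, and 3.76, 3.42 and 3.72 at 8 h. No treated Sox11 library reached the untreated ones, and those of CX-5461 at 4 h overlapped those of BMH-21 at 4 and 8 h. Sox11 differed from control by -0.63, -1.78 and -2.14 in the BMH-21 series, and by -0.86, -2.06 and -0.93 in that of CX-5461 (SE 0.13). Sox4 kept closest to its untreated level, which was 5.03, 4.96 and 5.10. It was 4.98, 5.22 and 5.12 at 2 h, 4.38, 4.44 and 4.37 at 4 h, and 5.27, 5.00 and 5.19 at 8 h of BMH-21, and 4.73, 4.56 and 4.49, then 4.44, 4.74 and 4.49, then 5.68, 5.46 and 5.51 with CX-5461. Only the 4 h libraries were below the untreated ones with BMH-21, and with CX-5461 the 2 h and 4 h libraries were below and the 8 h libraries above. Sox4 differed from control by 0.08, -0.63 and 0.13 in the BMH-21 series, and by -0.43, -0.47 and 0.52 in that of CX-5461 (SE 0.11). Centred, the 2 h and 4 h CX-5461 differences of Sox4 were -0.29 and -0.32. Its centred 8 h differences were 0.34 after BMH-21, against 0.31 after CX-5461, so at 8 h its position against control with BMH-21 depends on the scaling.

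Lef1 and Tcf7l1, the HMG-box partners of beta-catenin, took different courses between 4 and 8 h. Lef1 had a log2 level of 4.31, 4.32 and 4.24 in untreated cells, 3.80, 4.15 and 4.12 at 2 h, 2.33, 2.35 and 2.20 at 4 h, and 2.69, 2.1 and 2.15 at 8 h of BMH-21. The CX-5461 values were 3.78, 3.75 and 3.71 at 2 h, 2.16, 2.38 and 2.21 at 4 h, and 4.04, 3.69 and 4.08 at 8 h. At the bottom the Lef1 libraries of 4 h with either inhibitor and of 8 h with BMH-21 overlapped. Lef1 differed from control by -0.27, -2.0 and -1.98 in the BMH-21 series, and by -0.55, -2.04 and -0.35 in that of CX-5461 (SE 0.13). Without the second 8 h CX-5461 library the last of these was -0.23 and passed no threshold, and centred it was -0.57.

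Tcf7l1, the most abundant member, had a log2 level of 7.23, 7.17 and 7.21 in untreated cells, 7.08, 7.33 and 7.23 at 2 h, 6.71, 6.60 and 6.60 at 4 h, and 5.38, 4.90 and 5.30 at 8 h of BMH-21. CX-5461 gave 7.34, 7.17 and 7.08 at 2 h, 6.47, 6.73 and 6.51 at 4 h, and 6.62, 6.47 and 6.51 at 8 h. The 2 h libraries overlapped the untreated ones with both inhibitors, and the 8 h BMH-21 libraries stood apart below all others. Tcf7l1 differed from control by 0.01, -0.57 and -2.01 in the BMH-21 series, and by -0.01, -0.63 and -0.67 in that of CX-5461 (SE 0.11). The 2 h CX-5461 difference changed sign on centring, to 0.14.

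Etv1, the ETS factor, had a log2 level of 4.46, 4.33 and 4.29 in untreated cells, 4.29, 4.63 and 4.70 at 2 h, 3.35, 3.16 and 2.99 at 4 h, and 2.97, 2.44 and 2.68 at 8 h of BMH-21. With CX-5461 it was 4.37, 4.29 and 4.19 at 2 h, 2.58, 2.94 and 2.81 at 4 h, and 3.50, 3.53 and 3.60 at 8 h. Its 2 h libraries overlapped the untreated ones with both inhibitors, and all 4 h and 8 h libraries were below them. Differences from control were 0.19, -1.19 and -1.66 in the BMH-21 series, and -0.08, -1.58 and -0.81 in that of CX-5461 (SE 0.12). Centred, the 2 h CX-5461 difference was 0.07.

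**Figure D1:**
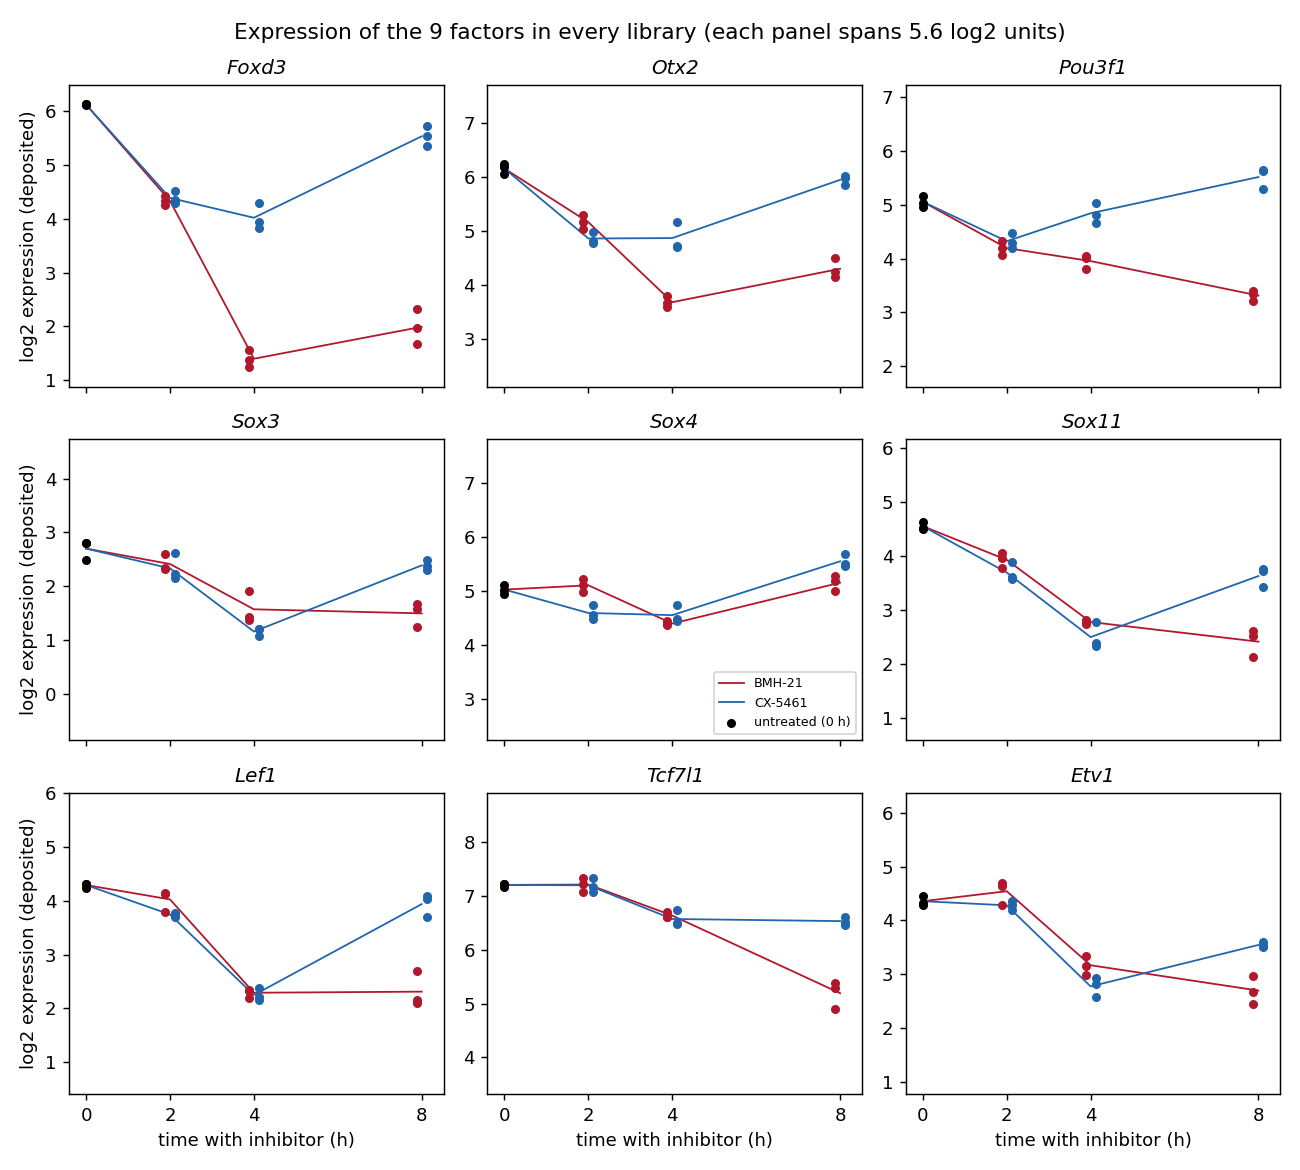
Log2 expression (vertical axis, deposited scale) of each of the 9 genes against hours with inhibitor (horizontal axis). Points are the 3 libraries of a group and lines join group means, red for BMH-21, blue for CX-5461 and black points for untreated cells, and every panel spans 5.6 log2 units. Foxd3 and Otx2 are lowest at 4 h of BMH-21, Tcf7l1 and Pou3f1 at 8 h of BMH-21, and the blue lines of 8 of the 9 genes turn up between 4 and 8 h.

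Over the 9 genes, the comparisons with control were used to choose the members, and their counts are given as a description only. A gene was counted as called at a limma adjusted p under 0.05 over all tested genes. With BMH-21, 4 members were called lower at 2 h (Foxd3, Otx2, Pou3f1 and Sox11), beside 11.2% of all tested genes. The number called higher was 0, beside 8.48%. Centring added Etv1 as 1 called higher, at 0.26, with 2560 lower and 2725 higher over all genes. At 4 h of BMH-21 9 were called lower, beside 44.9% of all genes, and 0 higher, beside 22.1%. By 8 h of BMH-21 8 were called lower, all but Sox4, beside 56.9%, and 0 higher, beside 24.5%. Centred, Sox4 was called higher, which made the split at 8 h of BMH-21 8 lower to 1 higher. The centred counts over all genes were 7523 lower and 4884 higher in that comparison. At 2 h of CX-5461 6 were called lower (the 4 genes above with Sox4 and Lef1), beside 20.5%, and 0 higher, beside 7.45%. Tcf7l1 was called higher there under median-ratio factors (0.18) and quantile normalization (0.16). Over all genes median-ratio factors gave 1881 lower and 2756 higher, and quantile normalization 2138 and 2039. At 4 h of CX-5461 8 were called lower, all but Pou3f1, beside 51.2%, and 0 higher, beside 19.8%. At 8 h of CX-5461 5 were called lower (Foxd3, Sox11, Lef1, Tcf7l1 and Etv1), beside 14.3%, and 2 higher (Pou3f1 and Sox4), beside 35.1%. Centred, the 8 h CX-5461 split was 7 lower, with Otx2 and Sox3 added, to 2 higher among the members and 6550 to 4301 among all genes, against 2091 to 5154 on the deposited scale. The median member difference was -0.29, -1.19 and -1.86 in the BMH-21 series, and -0.55, -1.54 and -0.35 in that of CX-5461, beside the medians over all genes given above. The 6 comparisons share the control libraries. Without the second 8 h BMH-21 library the 8 h differences were -3.96 for Foxd3, -1.78 for Otx2, -1.69 for Pou3f1, -1.08 for Sox3, 0.20 for Sox4, -2.0 for Sox11, -1.87 for Lef1, -1.86 for Tcf7l1 and -1.53 for Etv1, with the same 8 called.

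**Figure D2:**
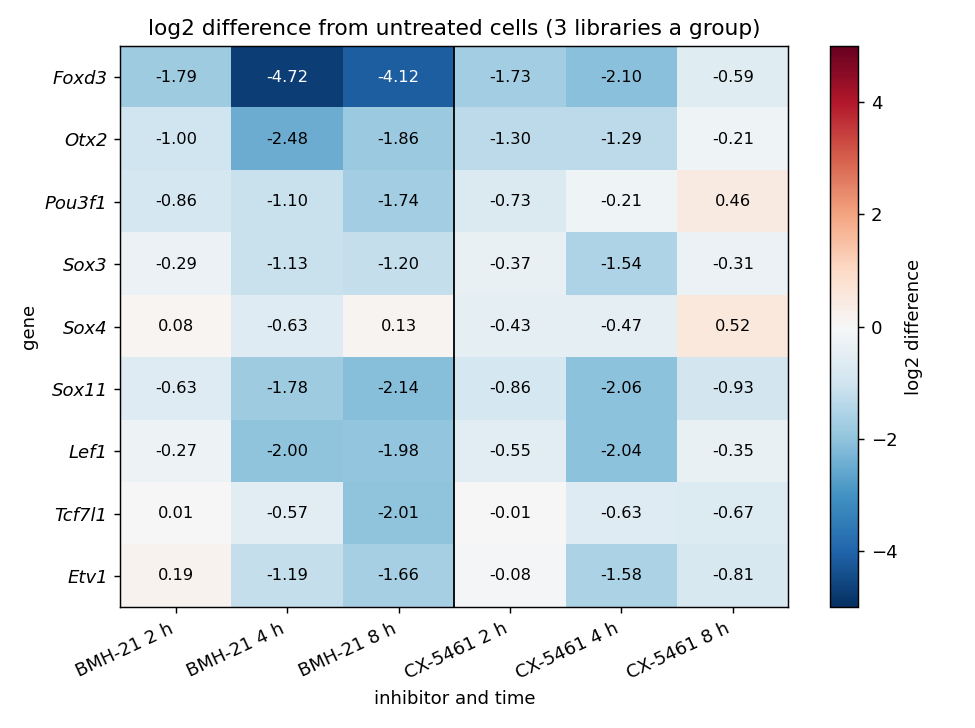
Log2 difference from untreated cells for the 9 genes (rows) at 2, 4 and 8 h of each inhibitor (columns), from means of 3 libraries a group. Blue is lower and red higher than untreated, and the value is written in each cell, from -4.72 for Foxd3 at 4 h of BMH-21 to 0.52 for Sox4 at 8 h of CX-5461.

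The next question was where the inhibitors differed at the same time and the same dose of 1 µM. The 8 members other than Foxd3 were tested for this, with p-values adjusted over all tested genes by limma, although their levels had been seen when the list was drawn up. Foxd3, selected on its fall with inhibitor, is described without a test and is not counted among the calls below. At 2 h the inhibitors differed in 1 member. Sox4 was 0.51 higher on the log2 scale with BMH-21 than with CX-5461 (SE 0.11, limma adjusted p = 8.1e-04), with all 3 BMH-21 libraries above the CX-5461 ones. All tested genes were called higher at a rate of 2.47% in that comparison. The difference of Foxd3 at 2 h was -0.05, with a 95% interval of -0.30 to 0.19. For Tcf7l1 the interval was -0.20 to 0.23, for Pou3f1 -0.36 to 0.10, for Sox3 -0.22 to 0.38, and for Sox11 -0.01 to 0.48. The intervals of Otx2 (0.08 to 0.53), Lef1 (0.03 to 0.53) and Etv1 (0.02 to 0.50) did not include 0, and none of the 3 passed the adjusted threshold. Centred, Otx2 did, at 0.23 (limma adjusted p = 0.0083), and with median-ratio factors Otx2 (0.20) was called as well as Pou3f1 (-0.23).

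At 4 h Foxd3, Otx2 and Pou3f1 were lower with BMH-21 than with CX-5461, and the groups did not overlap. The difference was -2.62 for Foxd3, a 6.14-fold lower level. Otx2 differed by -1.19 (SE 0.11, limma adjusted p = 6e-16) and Pou3f1 by -0.89 (SE 0.12, limma adjusted p = 5.9e-10). These 2 were called lower, beside 8.49% of all genes. Sox3 and Etv1 were called higher with BMH-21, beside 9.35% of all genes, by 0.41 (SE 0.15, limma adjusted p = 0.041) and 0.39 (SE 0.12, limma adjusted p = 0.014). Both calls were lost without the first BMH-21 4 h library, where the differences were 0.24 and 0.30, and without the first CX-5461 4 h library, where they were 0.37 and 0.29. That of Sox3 was also lost without the third CX-5461 4 h library, at 0.43, and both were lost with eBayes without trend or with only the groups compared. The Sox3 call was lost too with no filter, with values below 0 set to 0 and with voom weights. The difference of Lef1 lay within -0.21 to 0.29 and that of Tcf7l1 within -0.15 to 0.28 (95% intervals). Those of Sox4 (-0.38 to 0.06) and Sox11 (0.03 to 0.53) did not pass the threshold, and that of Sox11 did so centred, at 0.27 (limma adjusted p = 0.014).

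By 8 h the 8 tested members were all called lower with BMH-21 than with CX-5461, and in none of the 9 did the groups overlap. Of all tested genes 67.2% were called lower in the same comparison, and the median of all genes differed by -0.48. Among all genes 9861 were called lower and 1754 higher. Centred, these were 5954 and 4559, with 7 tested members lower and 0 higher. Foxd3 differed by -3.54, an 11.6-fold lower level with BMH-21. Pou3f1 followed with -2.20 (SE 0.12, limma adjusted p = 2.7e-36), Otx2 with -1.65, Lef1 with -1.63 and Tcf7l1 with -1.34 (limma adjusted p = 1.2e-26, 5e-23 and 7.6e-22). Sox11 differed by -1.22, Sox3 by -0.89 and Etv1 by -0.85 (limma adjusted p = 8e-16, 8.1e-08 and 8.8e-10). Centred, these 3 were smaller, at -0.79, -0.46 and -0.42, and all 3 passed the threshold. Sox4 differed by -0.40 on the deposited scale (limma adjusted p = 8e-04) and by 0.03 centred, so its call at 8 h depends on the scaling. Without the second 8 h BMH-21 library the 8 tested members were called lower as well, from -2.15 (Pou3f1) to -0.32 (Sox4), and Foxd3 differed by -3.38.

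**Figure D3:**
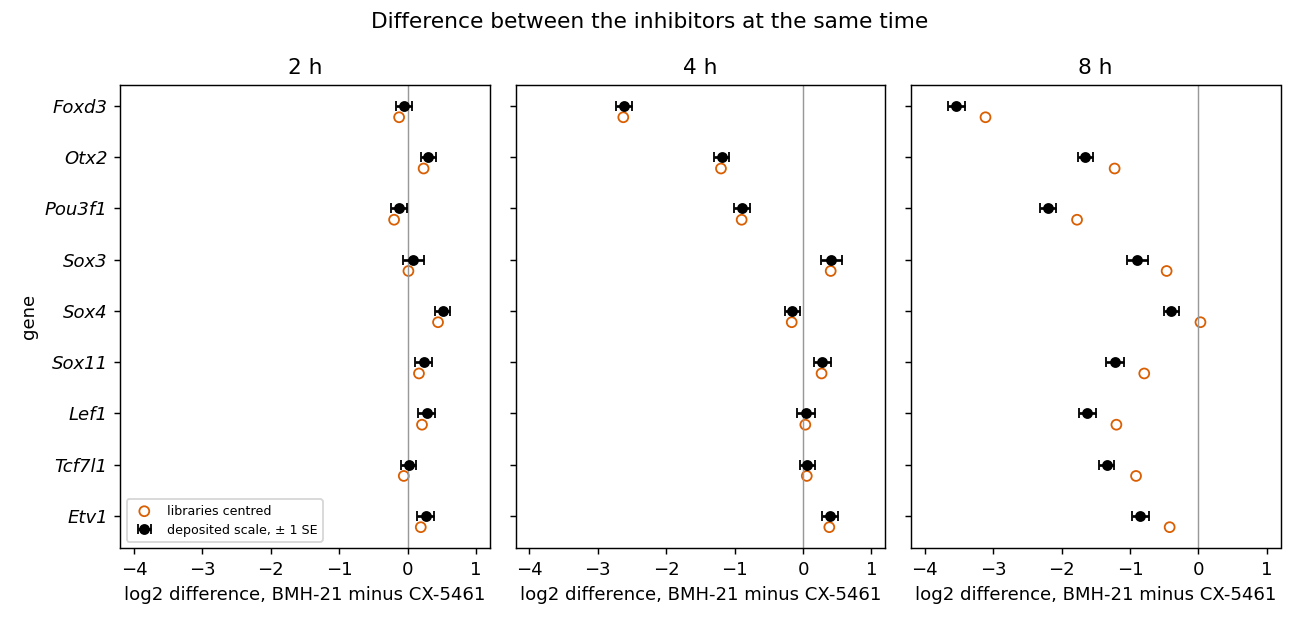
Log2 difference of BMH-21 minus CX-5461 (horizontal axis) for the 9 genes (vertical axis) at 2, 4 and 8 h. Black points with bars are the deposited scale with 1 SE, from 3 libraries a group, and open circles are the values after centring each library on its median gene. At 2 h the points lie between -0.13 (Pou3f1) and 0.51 (Sox4), at 4 h those of Foxd3, Otx2 and Pou3f1 lie below 0 and those of Sox3 (0.41) and Etv1 (0.39) above it, and at 8 h the open circle of Sox4 lies at 0.03 while the other 8 lie below 0.

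Between 2 and 4 h most members moved down with both inhibitors. The levels of the tested members had been seen when the list was drawn up. Tests of this and the later steps are therefore not independent of that choice. With BMH-21, 7 of the 8 tested members were called lower at 4 h than at 2 h, all but Pou3f1, beside 34.8% of all genes. Foxd3 differed by -2.93, and the largest among the tested members were Lef1 (-1.73), Otx2 (-1.49) and Etv1 (-1.37), with limma adjusted p = 4.4e-25, 1.6e-23 and 2.8e-19. Pou3f1 differed by -0.24 (limma adjusted p = 0.066). With CX-5461, 5 were called lower, beside 26.8% of all genes, and Pou3f1 was called higher, beside 20.7%. Etv1 fell by 1.51, Lef1 by 1.50, Sox11 by 1.20 and Sox3 by 1.17 on the log2 scale (limma adjusted p = 1.2e-21, 1.5e-20, 3.5e-15 and 2.9e-11), and Tcf7l1 fell by 0.63 (limma adjusted p = 4.7e-07). Pou3f1 rose by 0.52 (limma adjusted p = 7.5e-05). Otx2, at 0.01, and Sox4, at -0.04, had overlapping libraries at the 2 times. Foxd3 differed by -0.37, and by -0.30 without the first 2 h CX-5461 library and -0.27 without the third 4 h CX-5461 library.

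Between 4 and 8 h most members moved up with CX-5461, while with BMH-21 they moved in both directions. Foxd3, Otx2 and Pou3f1 already differed between the inhibitors at 4 h. With CX-5461, 7 of the 8 tested members were called higher at 8 h than at 4 h, all but Tcf7l1, beside 58.8% of all genes, and the median of all genes moved by 0.34. Foxd3 differed by 1.51. Lef1 rose by 1.69, Sox3 by 1.23, Sox11 by 1.13, Otx2 by 1.08, Sox4 by 1.00, Etv1 by 0.77 and Pou3f1 by 0.67, and in each the 8 h libraries were all above the 4 h ones. Their limma adjusted p ran from 2.8e-23 for Lef1 to 3.1e-07 for Pou3f1. Centred, these 7 rises ranged from 0.30 (Pou3f1) to 1.31 (Lef1) and all passed the threshold. Tcf7l1 differed by -0.04 (limma adjusted p = 0.76) with overlapping libraries. Centred, Tcf7l1 was called lower, by -0.41, which made the split 7 higher to 1 lower. Over all genes the centred counts were 3790 higher and 4687 lower, against 8626 and 712 on the deposited scale.

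With BMH-21 the same step split the members. Foxd3 differed by 0.59, and by 0.75 without the second 8 h BMH-21 library. Sox4 rose by 0.76 and Otx2 by 0.62 (limma adjusted p = 3.4e-09 and 1.5e-06), so 2 members were called higher, beside 18.6% of all genes. Tcf7l1 fell by 1.44, Pou3f1 by 0.64, Etv1 by 0.47 and Sox11 by 0.36 (limma adjusted p = 1.9e-23, 9.5e-07, 6e-04 and 0.0097), 4 called lower beside 37.8% of all genes. The fall of Sox11 lost its call without the second 8 h BMH-21 library, at -0.22, and with median-ratio factors, at -0.19. Sox3 and Lef1 had overlapping libraries at the 2 times, with differences of -0.08 and 0.02.

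The difference between those 2 steps was tested in the same model. The step from 4 to 8 h was called lower with BMH-21 than with CX-5461 in 7 of the 8 tested members, all but Sox4, beside 61.4% of all genes. The median over all genes was -0.52 and over the members -1.30. Of all genes 9003 were called lower and 1170 higher, and centred 5310 and 3514, with 6 tested members lower and 0 higher. Lef1 differed by -1.67 (SE 0.18), Sox11 by -1.50 (SE 0.18), Tcf7l1 by -1.40 (SE 0.15), Pou3f1 by -1.31 (SE 0.16), Sox3 by -1.30 (SE 0.21) and Etv1 by -1.24 (SE 0.17), with limma adjusted p from 3e-14 for Lef1 to 9e-08 for Sox3. Centred, these 6 ran from -1.23 (Lef1) to -0.80 (Etv1). Foxd3 differed by -0.92, by -0.48 centred, by -0.38 with median-ratio factors and by -0.76 without the second 8 h BMH-21 library. Otx2 differed by -0.46 (limma adjusted p = 0.0086) on the deposited scale and by -0.02 centred, where the call was lost. Sox4 differed by -0.24 (limma adjusted p = 0.16) and by 0.20 centred. Under median-ratio factors 6 tested members were called lower and Sox4 higher (0.30), beside 4044 lower and 4438 higher over all genes.

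Relatives of the 9 factors were examined to see which family members the cells expressed. In this and the following lists, a gene that rose or fell had a limma adjusted p under 0.05 over all tested genes. Of 14 relatives, 8 were tested, and Foxd1, Foxd2, Foxd4, Otx1, Pou3f2 and Pou3f4 were below the filter, with at most 50 reads in any untreated or 8 h library. Pou3f3, a paralogue of Pou3f1, was at 6 to 13 reads in untreated cells, 215 to 272 at 8 h of BMH-21 and 27 to 34 at 8 h of CX-5461. Its untreated and 8 h CX-5461 libraries lay below the filter level, so Pou3f3 was tested only because of groups where it was high. It is described here without a p-value. It was 1.33 higher than control at 4 h and 4.04 at 8 h of BMH-21 (SE 0.35). With CX-5461 it was 0.79 and 1.58 higher at 4 and 8 h, and 6 to 13 reads make these folds imprecise. At 8 h Pou3f3 was 2.46 higher with BMH-21 than with CX-5461 (SE 0.35), where Pou3f1 was 2.20 lower. Sox2, the relative of Sox3, fell by 0.93, 1.46 and 1.18 at 2, 4 and 8 h of BMH-21 and by 0.90 and 0.80 at 2 and 4 h of CX-5461 (SE 0.10). Of the Etv1 relatives, Etv5 fell by 1.10 and Etv4 by 0.86 at 8 h of BMH-21, and at 4 h Etv5 fell by 1.07 with BMH-21 and by 1.05 with CX-5461. Sox12, the remaining SoxC gene, fell by 1.52 at 4 h and 0.96 at 8 h of BMH-21 and by 0.79 at 4 h of CX-5461. Sox1 fell by 0.72 and 0.75 at 2 and 4 h of BMH-21 and by 0.56 and 0.63 at the same times of CX-5461, and was 0.06 and 0.20 from control at 8 h. Of the TCF genes, Tcf7l2 rose by 0.27 at 8 h of BMH-21 and by 0.56 at 8 h of CX-5461, and Tcf7 passed no threshold in the 6 comparisons with control, with differences from -0.20 to 0.23. In all, 4 relatives fell and 2 rose at 8 h of BMH-21, beside 56.9% and 24.5% of all genes. At 8 h of CX-5461 0 fell and 2 rose, beside 14.3% and 35.1%. Pou3f3 was among the rises with both inhibitors, and Tcf7l2 was the other. Because Pou3f3 passed the filter only through groups where it was high, it is counted there as a description only. Centring gave 4 falls and 2 rises at 8 h of CX-5461. Over all genes centring gave 6550 and 4301, which stand beside the centred 8 h CX-5461 counts of the lists below as well.

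Other genes of the formative or primed state were described from a list of 22, of which 20 were tested and Foxa2 and Fgf8 were below the filter. At 4 h of BMH-21 17 fell and 2 rose, with a median of -0.85 beside -0.21 over all genes, and at 8 h again 17 fell and 2 rose, with a median of -1.27 beside -0.40. Of all tested genes 44.9% fell and 22.1% rose at 4 h, and 56.9% fell and 24.5% rose at 8 h. The largest falls at 8 h of BMH-21 were of the RNA-binding protein gene Lin28a (-3.11), the zinc finger gene Zic5 (-2.71) and the growth factor gene Fgf5 (-2.66), and Nodal (0.57) and Hes6 (0.52) rose. Fgf5 was low throughout these 2 groups, with a mean log2 level of 0.70 in untreated cells. Its mean of -1.95 at 8 h of BMH-21 lay below the filter level. With CX-5461 13 fell and 1 rose at 2 h, 16 fell and 2 rose at 4 h, and 6 fell and 4 rose at 8 h, with medians of -0.36, -0.80 and -0.01. Of all tested genes 20.5% fell and 7.45% rose at 2 h of CX-5461. The shares were 51.2% and 19.8% at 4 h, and 14.3% and 35.1% at 8 h. With CX-5461 Lin28a fell at 8 h by 1.23, the DNA methyltransferase gene Dnmt3b by 1.13 and Zic5 by 0.72, and Hes6 rose by 1.14, Nodal by 0.99 and Eomes by 0.87. Centred, 13 fell and 3 rose at 8 h of CX-5461. The count at 2 h of CX-5461 was 8 in either direction without the first or second untreated library, or without the second 2 h CX-5461 library, against 14 with all libraries. Falls over all genes went from 3003 to 1500, 1395 and 1367 without the same libraries.

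Naive state genes, the opposite list, fell as well. Of 16 tested, 15 fell and 0 rose at 4 and at 8 h of BMH-21, with medians of -1.09 and -1.60. Of all tested genes 44.9% fell and 22.1% rose at 4 h, and 56.9% and 24.5% at 8 h. With CX-5461 15 fell at 4 h, with a median of -0.93, and 9 fell and 1 rose at 8 h, with a median of -0.38 and, centred, 14 falls and 1 rise. Of all tested genes 51.2% fell at 4 h of CX-5461, and 14.3% fell and 35.1% rose at 8 h. The largest falls at 8 h of BMH-21 were of the nuclear receptor genes Nr0b1 (-3.38) and Nr5a2 (-2.80) and of Prdm14 (-2.98), a repressor of formative genes. After 8 h of CX-5461 Nr0b1 fell by 1.22, Tcl1 by 0.98 and Tfcp2l1 by 0.78, and Pecam1 rose by 0.30. The 9 factors and the naive list thus had differences of the same sign at the median in every comparison with control, and no difference between the lists was tested.

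Partners and corepressors of these factors were described from a list of 12, of which 11 were tested under their listed symbol. At 4 h of BMH-21 6 fell and 1 rose, with a median of -0.23 beside -0.21 over all genes, and at 8 h 10 fell and 1 rose, with a median of -0.77. Of all tested genes 44.9% fell and 22.1% rose at 4 h, and 56.9% and 24.5% at 8 h. The Groucho corepressor genes Tle1 and Tle4 fell by 1.48 and 1.3 and the beta-catenin cofactor gene Bcl9 by 1.14 at 8 h of BMH-21, and its paralogue Bcl9l rose by 0.66. At 8 h of CX-5461 5 fell and 1 rose, beside 14.3% and 35.1% of all genes. Hdac2 was at -0.47, Tle1 at -0.41, Bcl9 at -0.36 and Bcl9l at 0.56, and centred 9 fell and 1 rose.

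Genes known to respond to TCF/LEF factors or to FGF and ERK signalling moved in both directions. Of 12, 11 were tested and Cdx1 was below the filter. At 8 h of BMH-21 7 fell and 4 rose, beside 56.9% and 24.5% of all genes. The ERK feedback inhibitor genes Spry4 and Spry2 fell by 2.33 and 1.01 and the WNT target Axin2 by 1.56, and the WNT targets Nkd1, Rnf43 and Sp5 rose by 1.60, 1.48 and 1.39. At 8 h of CX-5461 Spred1 fell by 0.35 and 6 rose, among them Sp5 (1.56), Rnf43 (1.39) and Cdx2 (1.26), and centred 3 fell and 4 rose. Of all genes 14.3% fell and 35.1% rose there on the deposited scale. At 4 h 8 fell and 2 rose with either inhibitor. Of all genes 44.9% fell and 22.1% rose at 4 h of BMH-21, and 51.2% and 19.8% at 4 h of CX-5461.

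**Figure D4:**
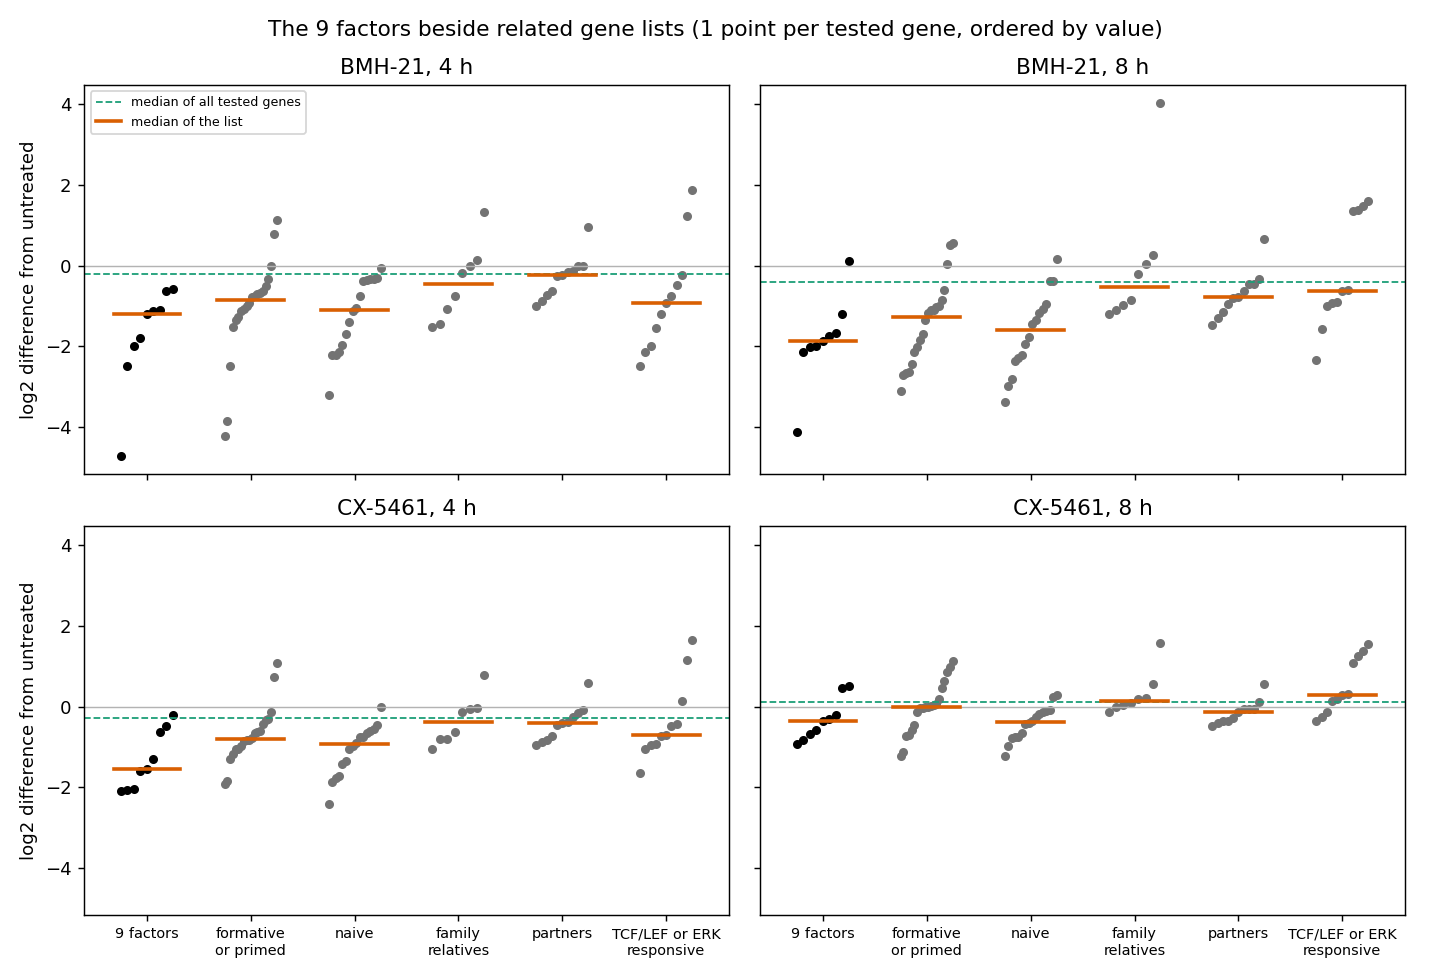
Log2 difference from untreated cells (vertical axis) for the 9 factors and 5 related gene lists (horizontal axis) at 4 and 8 h of each inhibitor. Each point is a tested gene, ordered by value within its list, orange bars are list medians and the dashed green line is the median of all tested genes, from -0.40 to 0.11 in these panels. The single point near 4 at 8 h of BMH-21 is Pou3f3, at 4.04.

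The genes whose pattern over the 6 comparisons was most like that of each factor were found among 13404 others, by the root mean square distance between log2 differences after subtracting the median of all genes. Nearest to Foxd3 was Mir124a-1hg, a microRNA host gene, at a distance of 0.62 (Pearson r = 0.97 over 7 group means), followed by Bmp4 (0.63), Ankrd34a (0.63), Foxr2 (0.66) and Zic5 (0.67). Zic5 differed from control by -4.21 at 4 h of BMH-21 and -1.85 at 4 h of CX-5461, beside -4.72 and -2.10 for Foxd3. For Otx2 the nearest were Kctd12b (0.17) and Sall1 (0.18), and for Pou3f1 Lingo3 (0.25) and Snora31 (0.26). For Sox3 they were Chd7 (0.09) and Fam110b (0.12), for Sox4 Klhl24 (0.12) and Spsb2 (0.12), and for Sox11 Cxcl12 (0.21) and Halr1 (0.21). For Lef1 they were Satb1 (0.16) and Rreb1 (0.17), for Tcf7l1 Nono (0.12) and Rln3 (0.12), and for Etv1 Bcl11a (0.16) and Ino80 (0.19). Foxd3 had the most distant nearest gene of the 9. This distance tends to grow with the size of the differences, and Foxd3 was selected on a large one. Among the members, Sox3, Sox11 and Lef1 had pairwise Pearson r of 0.95 to 0.96 over the 7 centred group means and Sox4 and Tcf7l1 -0.52, as a description of points that share libraries.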

How the data were processed

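Poly(A) RNA libraries were made with a directional kit after DNase treatment, per the labels' protocols. Per the submitters' processing notes, Trim Galore 0.5.0, TopHat2 2.1.1, R 4.0.5 and limma 3.46.0 were among the tools and mm10 was the build; the counting step, its strand setting and the origin of the scaling factors are not given in the sources used here. The authors deposited log2 expression values whose file name says they were normalized with voom. With an offset of 0.5 reads the values gave whole reads to within 1.7e-08. The values remain a log2 unit, so limma 3.58.1 (R 4.3.3) was used: a linear model with 1 mean per group over 21 libraries, eBayes with trend, two-sided tests and Benjamini-Hochberg adjustment over 14666 genes with a log2 value above 0 in at least 3 libraries (6234 were below). Moderation drew 111.5 degrees of freedom from the trend over genes and 14 from the libraries, so a gene's own spread counted little. Replicates differed by more than sampling noise and were counted separately. Same-numbered libraries did not deviate together, so the replicate number did not enter the fit.

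The 9 members and all gene lists were chosen with earlier results of these data known. Genes named were the members, each family relative, the 3 largest rises and falls called at 8 h in each list, and the nearest genes by pattern (5 for Foxd3, 2 for the others, with a control mean of at least 0). Centring set each library to its median gene. Gene positions came from GENCODE M21, which matched 20069 of 20900 symbols, and promoters from RefSeq. The fit was tested on simulated data. Alternatives were other filters, offsets, scalings and variance models, fits of fewer groups, the replicate block and leaving out each library. Figures were drawn with matplotlib 3.10.9.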

Additional observations from a re-analysis of the deposited data

Results flagged for a closer look

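In 7 of the 8 genes tested the step from 4 to 8 h differed between the inhibitors by a test of that difference, BMH-21 minus CX-5461 on the log2 scale. The values were -0.46 for Otx2, -1.31 for Pou3f1, -1.30 for Sox3, -1.50 for Sox11, -1.67 for Lef1, -1.40 for Tcf7l1 and -1.24 for Etv1. The levels of these genes in all groups had been seen when the list was drawn up, so the calls are not independent of that choice. Foxd3, described without a test, had -0.92, and -0.48 centred. All tested genes had a median of -0.52 in this comparison, and 61.4% of them were called lower. Centred on the median gene, 6 of the 7 passed the threshold, and Otx2, at -0.02, did not. The deposited scaling factors of the 8 h libraries, 1.209 to 1.375 for BMH-21 against 0.888 to 0.943 for CX-5461, move with this result, and their part was tested only through the centred and other scalings. Without the second 8 h BMH-21 library, which stood apart from the other two of its group, the 7 were called as well, from -1.56 (Lef1) to -0.39 (Otx2).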

How the results depend on the processing

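Of the 126 member differences, 17 changed sign under at least 1 alternative. Centring turned Tcf7l1 (0.14) and Etv1 (0.070) at 2 h of CX-5461 against control, Tcf7l1 between the inhibitors at 2 h (-0.057), Sox4 between them at 8 h (0.030) and the Sox4 difference of the 4 to 8 h steps (0.20). Median-ratio factors gave 0.18, 0.11, -0.086, 0.075 and 0.30 for these. They also turned Pou3f1 at 4 h of CX-5461 (0.037), Sox3 between the inhibitors at 2 h (-0.018), Lef1 (-0.025) and Tcf7l1 (-0.0035) between them at 4 h, the BMH-21 step of Sox3 from 4 to 8 h (0.098), the CX-5461 step of Sox4 from 2 to 4 h (0.027) and the Otx2 difference of steps (0.079). Quantile normalization gave 0.16, 0.072, -0.094, 0.057 and 0.22 for the first 5 (Tcf7l1, Etv1, Tcf7l1, Sox4, Sox4), -0.030 for Tcf7l1 between the inhibitors at 4 h and -0.057 for the BMH-21 step of Lef1 from 4 to 8 h. Counted over all 9 genes, members called between the inhibitors numbered 1 at 2 h on the deposited scale, 2 centred, 3 with median-ratio factors and 2 with quantile normalization. Calls over all genes at 2 h were 223 lower and 362 higher on the deposited scale. They were 1112 and 1149 centred, 1405 and 803 with median-ratio factors, and 1072 and 775 with quantile normalization. At 4 h the members called, with Foxd3 among them, numbered 5, with 3 under eBayes without trend or with only the groups compared, 4 with no filter, values below 0 set to 0 or voom weights, 6 centred, with median-ratio factors or with quantile normalization, and 3 to 6 leaving out 1 library. Calls over all genes at 4 h were 1245 lower and 1372 higher on the deposited scale. They were 2707 and 4012 centred, 3536 and 2580 with median-ratio factors, and 3145 and 2994 with quantile normalization.

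Leaving out 1 library gave ranges across 0 for Tcf7l1 at 2 h of BMH-21 (-0.052 to 0.074) and of CX-5461 (-0.077 to 0.052), and between the inhibitors at 2 h for Foxd3 (-0.10 to 0.0084), Tcf7l1 (-0.045 to 0.084) and Sox3 (-0.0085 to 0.23) and at 4 h for Lef1 (-0.0029 to 0.11). The same held for the CX-5461 steps from 2 to 4 h of Otx2 (-0.14 to 0.087) and Sox4 (-0.13 to 0.031), the CX-5461 step from 4 to 8 h of Tcf7l1 (-0.088 to 0.042) and the BMH-21 steps from 4 to 8 h of Sox3 (-0.17 to 0.093) and Lef1 (-0.17 to 0.13). The cause was not tested. With the replicate number as a block, 5 members were called between the inhibitors at 4 h and 1 at 2 h, as without it. Over all genes the block gave 1155 lower and 1249 higher at 4 h, and 206 and 326 at 2 h. Same-numbered libraries had a median correlation of 0.002 (-0.25 to 0.11 over 63 pairs), so the numbers do not pair them. The replicate block with centring, added after seeing the data, gave the centred values above for Tcf7l1 (0.14 and -0.057), Etv1 (0.070) and Sox4 (0.030 and 0.20), with 2 members called at 2 h. Over all genes 1061 were called lower and 1059 higher in that 2 h comparison of the inhibitors. Depth did not limit the members, which had 108 reads or more in each library.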
